A study of Mus musculus with 12 samples.

Results

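The genes described here are 46 mouse genes of cell junctions, apico-basal polarity and the apical domain, of 53715 genes listed in the count table. They were chosen by name, as scaffolds and membrane proteins of tight junctions, the PAR, Crumbs and Scribble complexes, cadherins and catenins, nectins and afadin, connexins, ERM proteins, apical trafficking proteins, polarity kinases and apical membrane proteins. Claudins and Rab proteins were left out. The rule used names and no measured value, though the members were chosen with earlier results of these data known. All 46 were found in the table, and all 46 passed the filter of over 10 counts in at least 1 library, which left 17779 genes to test.

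Hepatocytes are polarized in an unusual way. A simple columnar epithelium has 1 apical surface opposite its base, whereas neighbouring hepatocytes share narrow apical lumina, the bile canaliculi, that run between them as a branched network. Tight junctions seal each canaliculus from the blood side, adherens junctions built from cadherins and catenins hold the cells together, and gap junctions built from connexins join their cytoplasm. The PAR and Crumbs complexes mark the apical side and its border, the Scribble complex marks the lateral side, and ERM proteins tie the apical membrane to the actin cortex.

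RNA was sequenced from 12 libraries of C57BL/6JOlaHsd mice, 4 in each of 3 groups, to compare the course of hepatoblast differentiation in culture with the adult liver cell. Hepatoblasts were Dlk1+ cells of E14.5 embryonic livers, pooled for each isolation, sorted with magnetic beads and processed directly. Diff. hepatocytes were such Dlk1+ cells kept for 4 days on fibronectin in a differentiation medium with serum, dexamethasone and Matrigel. The paper states that Dlk1+ cells of this embryonic age included some that were positive for Sox9, a bile duct marker. Mature hepatocytes were isolated by collagenase perfusion from livers of adult male mice, 8 to 12 weeks old, and processed directly. Age, culture, isolation method and, for the adult group, sex differ between the groups along with the stage of differentiation, and their parts cannot be told apart.

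The libraries held 19581551 to 25216977 counts on genes. Expression is given as CPM, the count of a gene relative to the scaled library total, after TMM scaling, which sets library sizes by the bulk of the genes. The label of each group was checked against markers. Dlk1, the surface protein used for the sort, had 2461 to 4199 CPM in hepatoblasts, 88.3 to 99.1 in Diff. hepatocytes and 3.17 to 6.42 in mature hepatocytes. Cps1, a urea cycle enzyme of hepatocytes, had 16.7 to 29.9, 5298 to 6190.0 and 5264 to 6850.2 CPM in the same order. Summed over each list and in that order, 5 hepatoblast markers had 58996 to 99776, 54124 to 64955 and 81905 to 120331 CPM, and 7 hepatocyte markers 33259 to 56262, 54197 to 62689 and 110594 to 156537 CPM. The hepatoblast list as a whole was thus not highest in hepatoblasts. It shares Alb and Hnf4a with the hepatocyte list. The 8 cell cycle genes summed to 1184 to 1949.98, 55.05 to 123 and 12.4 to 20.9 CPM.

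Replicate 1 of the hepatoblasts stood apart from the other 3 libraries of its group. Its 10 erythroid markers summed to 2314 CPM against 279 to 468 in the other 3, and its 9 macrophage markers to 265 CPM against 60.5 to 68.9. Replicate 1 of the Diff. hepatocytes held more of several other cell types than the rest of its group, with 3230.1 CPM over 9 mesenchymal markers against 1268 to 2095, 204 CPM over 9 macrophage markers against 39.2 to 93.2 and 233 CPM over 8 bile duct markers against 93.8 to 118. In mature hepatocytes the erythroid list summed to 135 to 183 CPM, with Epb42 at 0, and the macrophage list to 108 to 208 CPM, while the erythroid list had 5.86 to 16.99 CPM in culture. The 6 mesothelial markers had 8.12 to 12.01, 33.03 to 109.95 and 2.57 to 11.4 CPM in hepatoblasts, Diff. hepatocytes and mature hepatocytes. Both libraries were kept. In RNA of whole samples, fewer cells of a type and less RNA per cell cannot be told apart. The 8 bile duct markers summed to 27.0 to 36.0 CPM in hepatoblasts, 93.8 to 233 in culture and 37.7 to 66.6 in adult. The part of bile duct cells in the genes higher in culture was not tested.

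Between Diff. hepatocytes and hepatoblasts, 11 of the 46 genes were called, 9 higher and 2 lower. Calls required, in the quasi-likelihood test of edgeR, p below 0.01 once adjusted over the 17779 genes by Benjamini-Hochberg, and a log2 fold change beyond 1 either way. Over all genes tested 28.9% were called in this comparison, 14.9% higher and 14.0% lower. The higher genes were Marveld3, Gjb2, Ceacam1, Tjp3, Mal2, Patj, Nectin2, Gjb1 and Crb3, and the lower genes were Dpp4 and Anpep. The median log2 fold change was 0.13 over the 46 genes and -0.01 over all genes tested. With library totals in place of TMM, 8 were called higher and 4 lower, without Crb3 and with Jam3 and Llgl1 lower.

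Between mature hepatocytes and hepatoblasts, 19 of the 46 were called, 13 higher and 6 lower, against 44.8% of all genes, 20.1% higher and 24.7% lower. The 13 higher genes were Ceacam1, Tjp3, Gjb2, Marveld3, Dpp4, Gjb1, Cgnl1, Prkcz, Mal2, Jam2, Nectin2, Nectin3 and Nectin1. Ezr, Jam3, Pard6g, Cdh1, Llgl1 and Cgn were lower. The median log2 fold change was 0.07 over the 46 genes and -0.15 over all genes. This split depended on the scaling. Library totals shifted the median of all genes to -1.0, called 8 of the 46 higher and 17 lower, and no longer called Jam2, Mal2, Nectin1, Nectin2 and Nectin3. It added 11 lower genes, Cdc42, Ctnnb1, Ctnnd1, Gja1, Mark2, Marveld2, Msn, Pard6b, Prkci, Scrib and Tjp1.

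Diff. hepatocytes differed from mature hepatocytes in 17 of the 46 genes, 9 higher and 8 lower, against 35.8% of all genes, 20.2% higher and 15.6% lower. Marveld3, Ezr, Jam3, Msn, Cdh1, Marveld2, Patj, Tjp1 and Ocln were higher in culture, and Dpp4, Tjp3, Jam2, Ceacam1, Cgnl1, Anpep, Gjb1 and Stk11 were lower. The median log2 fold change was 0.29 over the 46 and 0.09 over all genes. Library totals moved the median of all genes to 0.62 and called 15 of the 46 higher and 6 lower, without Gjb1 and Stk11 and with Crb3, Ctnna1, F11r, Pard6b, Pard6g and Prkci higher. The 3 comparisons share libraries and are not independent of each other.

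**Figure D1:**
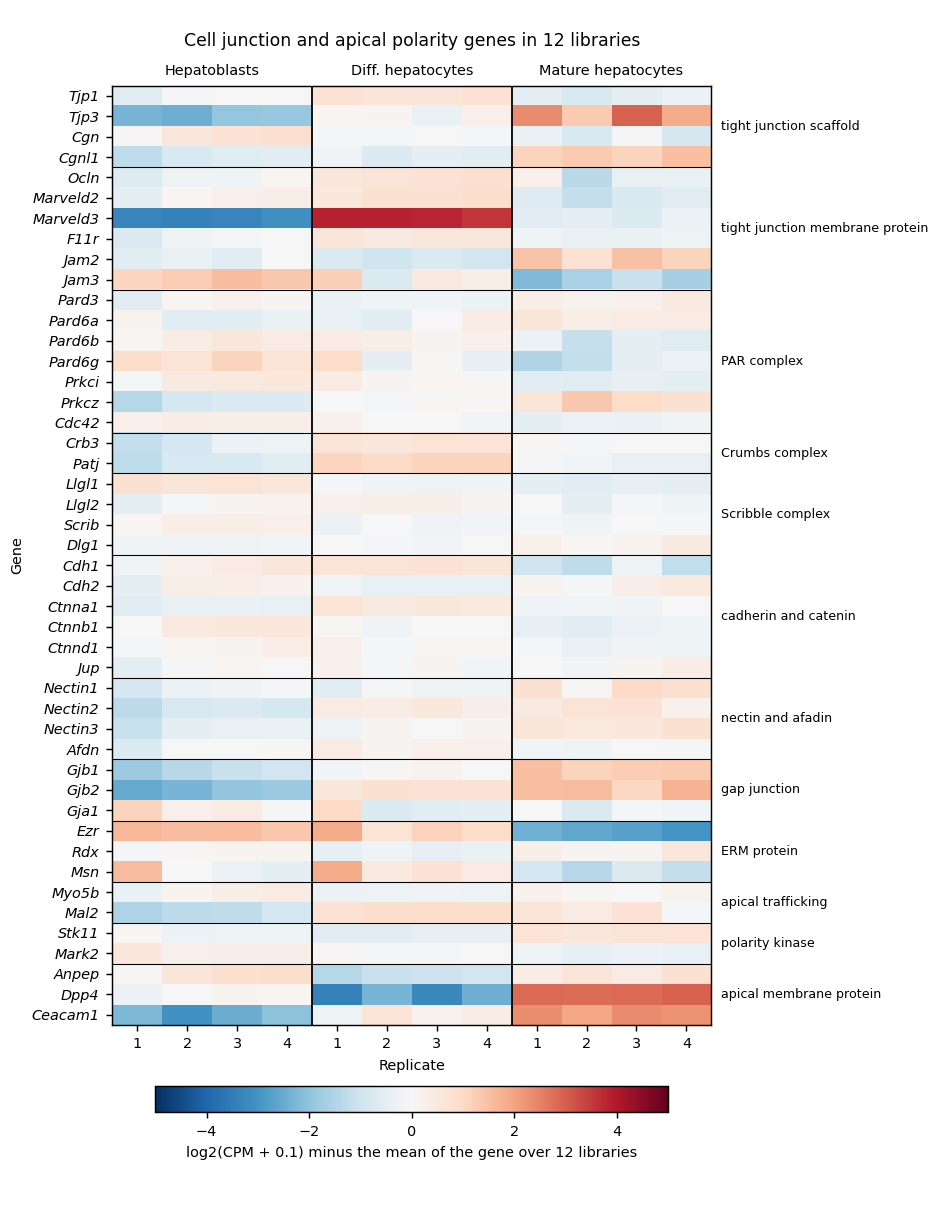
Heat map of the 46 genes (rows, grouped by role) in the 12 libraries (columns, 4 replicates per group). Colour gives log2(CPM + 0.1) minus the mean of the gene over the 12 libraries. Marveld3 was highest in Diff. hepatocytes, Dpp4 lowest there, and Ezr lowest in mature hepatocytes.

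The 3 apical membrane proteins differed between culture and adult liver, and each had its own course. All 3 were lower in Diff. hepatocytes than in mature hepatocytes, a comparison in which 15.6% of all genes were called lower. Of 6 other apical membrane proteins, which are not among the 46, 2 were higher in this comparison, Ggt1 and Nt5e. Enpep and Mme were lower, and 2 were not called. Against hepatoblasts, Ceacam1 rose in culture while Dpp4 and Anpep fell.

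Dpp4 encodes dipeptidyl peptidase 4, a surface protease of the canalicular membrane. Its level was 17.2, 21.2, 22.8 and 22.5 CPM in hepatoblasts, 1.902, 4.09, 2.13 and 3.75 in Diff. hepatocytes, and 149.9, 147, 151 and 163 in mature hepatocytes. The 3 groups did not overlap, and culture was the lowest. The log2 fold change was -2.82 ± 0.2 (SE) in Diff. hepatocytes against hepatoblasts (edgeR, adjusted p = 8.0e-08), 2.87 ± 0.18 in mature hepatocytes against hepatoblasts and -5.69 ± 0.22 between culture and adult, a difference of 51.5-fold. Anpep encodes CD13, the aminopeptidase used to stain the canalicular membrane in this system. Its CPM were 133, 194, 227 and 231 in hepatoblasts, 46.9, 58.9, 61.3 and 66.2 in Diff. hepatocytes, and 163, 199.8, 168 and 214 in mature hepatocytes. Every cultured library was below every freshly isolated one, with a log2 fold change of -1.75 ± 0.17 against hepatoblasts and -1.67 ± 0.17 against mature hepatocytes (edgeR, adjusted p = 1.8e-06). Hepatoblasts and mature hepatocytes overlapped in Anpep, with a log2 fold change of -0.08 ± 0.17 between them.

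Ceacam1, a cell adhesion molecule of the canalicular membrane, had 8.67, 4.99, 7.35 and 9.84 CPM in hepatoblasts, 34.7, 66.2, 46.4 and 52.95 in Diff. hepatocytes, and 211, 158, 215 and 197 in mature hepatocytes. The groups followed each other without overlap, from hepatoblasts through culture to adult. The log2 fold change was 2.7 ± 0.22 in culture and 4.66 ± 0.24 in adult against hepatoblasts, so that culture remained 3.901-fold below adult (edgeR, adjusted p = 2.7e-06). Of the 75-base stretches of Ceacam1 transcripts, 24.5% also occur in Ceacam2 or Ceacam10, so part of its counts is uncertain. The promoter of Ceacam1 is shown because it holds, within 12 bases, 2 matches to AGAACA, a half-site of the glucocorticoid receptor. These matches abut, with no bases between them. The window of Dpp4, which fell in culture, also held 1 match, and any role of the receptor was not tested. Promoter windows are RefSeq sequence of GRCm38.p6, 250 bases before to 50 after a transcription start, and 34 of the 46 genes had at least 1. In capitals are matches, on either strand, to AGAACA. This motif occurred in 19.0% of all 32851 windows of this length and in 18.5% of the 54 windows of these genes. A match is a run of letters and no evidence of binding.
Ceacam1 (chr7:25477576-25477875, minus strand): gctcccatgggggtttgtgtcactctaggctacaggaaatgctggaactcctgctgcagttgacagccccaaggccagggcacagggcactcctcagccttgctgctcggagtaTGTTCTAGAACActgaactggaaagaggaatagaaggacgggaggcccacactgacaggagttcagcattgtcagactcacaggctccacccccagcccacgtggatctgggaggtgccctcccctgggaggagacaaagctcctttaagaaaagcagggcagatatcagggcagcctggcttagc

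Of the 3 gap junction genes, Gjb1 and Gjb2 rose in both differentiated groups and Gja1 was not called. Of all genes, 14.9% were called higher in culture and 20.1% in adult, both against hepatoblasts. Gjb1 encodes connexin 32 and Gjb2 connexin 26, the main connexins of hepatocytes, and Gja1 encodes connexin 43, which other liver cell types carry. Gjb1 had 125, 166, 199.5 and 224 CPM in hepatoblasts, 396, 449, 488 and 439.6 in Diff. hepatocytes, and 1231, 944, 1055 and 1095 in mature hepatocytes. No library overlapped between groups, and the log2 fold change was 1.31 ± 0.16 in Diff. hepatocytes (edgeR, adjusted p = 1.1e-05) and 2.6 ± 0.17 in mature hepatocytes, both against hepatoblasts. Culture was 2.44-fold below adult. Gjb2 had 30.8, 35.3, 45.3 and 48.9 CPM in hepatoblasts, 257, 298, 290.2 and 286 in Diff. hepatocytes, and 505, 519.6, 365 and 594 in mature hepatocytes.

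Gjb2 had a log2 fold change of 2.82 ± 0.17 in culture against hepatoblasts (edgeR, adjusted p = 2.2e-08) and of 3.63 ± 0.18 in adult, again without overlap. The cultured level was 1.75-fold below the adult one, which is under the fold threshold. Gja1 stayed low, at 6.68, 3.702, 4.14 and 2.85 CPM in hepatoblasts, 6.18, 1.85, 2.09 and 2.17 in Diff. hepatocytes, and 3.09, 1.797, 2.86 and 2.79 in mature hepatocytes, with log2 fold changes of -0.5 ± 0.38 in culture and -0.72 ± 0.39 in adult against hepatoblasts that were not called. Both libraries that stood apart were the highest of their group in Gja1. Without replicate 1 of the Diff. hepatocytes, Gja1 was called lower in culture than in hepatoblasts, at a log2 fold change of -1.09. The part of other cell types in Gja1 was not tested.

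**Figure D2:**
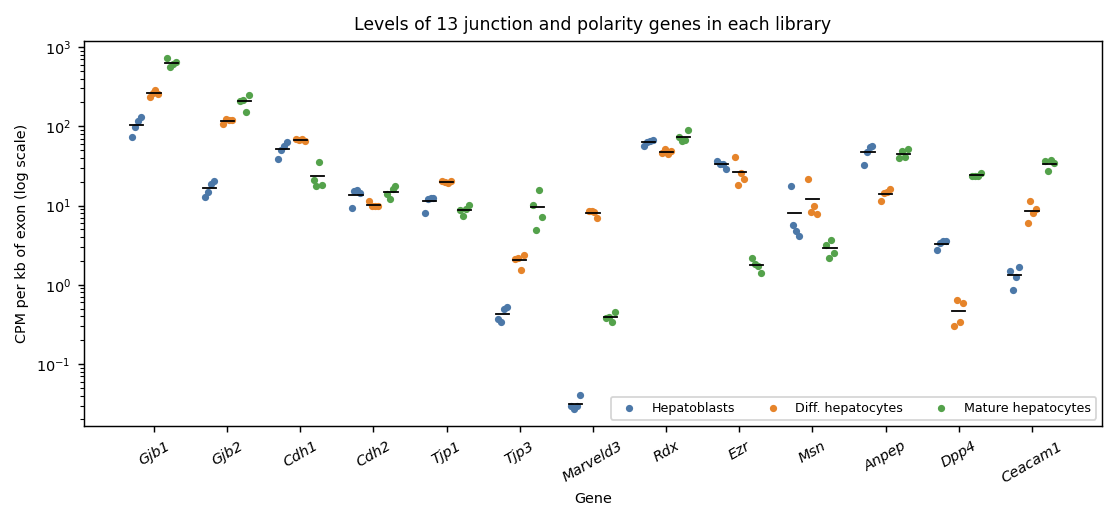
Levels of 13 genes in every library, as CPM per kb of exon on a log axis. Each point is 1 library, black bars are means of 4, and colours mark the groups. Gjb1 and Gjb2 rise from hepatoblasts through Diff. hepatocytes to mature hepatocytes, and Ezr falls only in the adult group.

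Among tight junction membrane proteins, Marveld3 changed most. It encodes a tetraspan protein of the occludin family. Its CPM were 0.0967, 0.0896, 0.0971 and 0.133 in hepatoblasts, 28.1, 27.9, 27.5 and 23.1 in Diff. hepatocytes, and 1.23, 1.28, 1.11 and 1.49 in mature hepatocytes. In counts, the hepatoblast libraries held 3, 3, 3 and 4, the cultured libraries 650, 649, 619 and 468 and the adult libraries 18, 20, 19 and 24. Cultured cells were thus far above both freshly isolated groups, and mature hepatocytes were above hepatoblasts, with no overlap.

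Since the hepatoblast libraries sat at the limit of detection for Marveld3, its fold change is best given from the summed counts. Scaled by library size, Diff. hepatocytes had 259 times the level of hepatoblasts (95% exact counting interval 151 to 486) and mature hepatocytes 12.3 times (6.83 to 24.2). These intervals cover counting error only. Against mature hepatocytes, where counts were higher, the log2 fold change in culture was 4.38 ± 0.14 (edgeR, adjusted p = 3.2e-11). Marveld3 lies on chr8:109947914-109962203 of GRCm38, on the minus strand, and shares no 75-base stretch and no exon base with another gene of the annotation.

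Ocln and Marveld2 encode occludin and tricellulin, the other members of that family, which sit along bicellular and at tricellular tight junctions. Ocln had 20.8, 27.2, 28.04 and 34.5 CPM in hepatoblasts, 48.1, 51.1, 53.6 and 55.8 in Diff. hepatocytes, and 38.7, 12.7, 24.9 and 25.3 in mature hepatocytes. The cultured libraries were above all others, while hepatoblasts and mature hepatocytes overlapped. Its log2 fold change was 1.04 ± 0.25 in culture against adult (edgeR, adjusted p = 0.0023), a call that was lost without replicate 2 of the mature hepatocytes, and 0.92 ± 0.24 against hepatoblasts, under the fold threshold. Marveld2 had 25.5 to 44.3 CPM in hepatoblasts, 50.4 to 64.7 in culture and 15.02 to 23.5 in adult, with no overlap and a log2 fold change of 1.51 ± 0.17 between culture and adult.

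The junctional adhesion molecules are immunoglobulin-like proteins of tight junctions. F11r, which encodes JAM-A and was the most abundant of them, had 71.9, 101, 111 and 117 CPM in hepatoblasts, 177, 162, 172 and 173 in Diff. hepatocytes, and 103, 90.8, 92.03 and 99.6 in mature hepatocytes. Culture was above both other groups, which overlapped, but its log2 fold changes of 0.77 ± 0.13 against hepatoblasts and 0.83 ± 0.13 against adult were under the threshold. Jam2 had 1.81, 2.15, 1.88 and 2.82 CPM in hepatoblasts, 1.64, 1.33, 1.64 and 1.38 in Diff. hepatocytes, and 7.47, 4.62, 7.82 and 6.02 in mature hepatocytes and was higher in mature hepatocytes than in hepatoblasts, by 1.58 ± 0.21, and than in culture, by 4.31-fold. Endothelial cells also express Jam2, and 9 endothelial markers, of which none was at 0 in a whole group, summed to 38.0 to 154 CPM in hepatoblasts, 11.7 to 21.7 in culture and 112 to 211 in adult. The part of endothelial RNA in Jam2 was not tested.

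Jam3 was instead lowest in mature hepatocytes. It had 2.23, 2.57, 3.08 and 2.68 CPM in hepatoblasts, 2.42, 0.5596, 1.42 and 1.28 in Diff. hepatocytes, and 0.137, 0.257, 0.409 and 0.248 in mature hepatocytes. The adult libraries held only 2, 4, 7 and 4 counts, and their level was 0.102 times that of hepatoblasts (95% exact counting interval 0.0585 to 0.165). The log2 fold change between culture and adult was 2.39 ± 0.44 (edgeR, adjusted p = 3.5e-04). Beside it, 9 mesenchymal markers summed to 761 to 1354 CPM in hepatoblasts, 1268 to 3230.1 in culture and 62.1 to 83.2 in adult, with none at 0 in a whole group, and replicate 1 of the Diff. hepatocytes was the highest of its group in both. Their part in Jam3 was not tested. Of its exon bases, 36.2% overlap Gm48796 on the opposite strand.

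The tight junction scaffolds link these membrane proteins to actin, and they divided by group. Tjp1, which encodes ZO-1, had 63.6, 93.8, 96.2 and 98.4 CPM in hepatoblasts, 159, 153, 149 and 159 in Diff. hepatocytes, and 68.6, 56.9, 69.97 and 78.7 in mature hepatocytes. All cultured libraries were above all others. The log2 fold change was 1.18 ± 0.13 against mature hepatocytes (edgeR, adjusted p = 4.9e-06) and 0.81 ± 0.13 against hepatoblasts, the latter under the fold threshold.

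Tjp3, which encodes ZO-3, had 1.39, 1.25, 1.85 and 1.92 CPM in hepatoblasts, 7.83, 8.01, 5.77 and 8.73 in Diff. hepatocytes, and 37.99, 18.4, 57.8 and 26.9 in mature hepatocytes. The groups did not overlap and followed the order of maturity, with log2 fold changes of 2.24 ± 0.32 in culture and 4.46 ± 0.33 in adult against hepatoblasts (edgeR, adjusted p = 4.3e-08). Cgn and Cgnl1 encode cingulin and paracingulin, which bind ZO proteins and actomyosin.

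Cgn had 87.7, 127, 142 and 152 CPM in hepatoblasts, 81.6, 82.6, 83.2 and 81.9 in Diff. hepatocytes, and 67.5, 50.1, 82.9 and 48.3 in mature hepatocytes and Cgnl1 39.2, 55.6, 62.3 and 64.5 in hepatoblasts, 83.1, 59.02, 66.9 and 63.3 in Diff. hepatocytes, and 202, 233, 204 and 262 in mature hepatocytes. The pair moved apart in the adult, where Cgnl1 was higher than in hepatoblasts by a log2 fold change of 2.02 ± 0.16 and Cgn was lower, with a log2 fold change of -1.03 ± 0.18. In culture neither was called against hepatoblasts. The Cgn call in the adult was lost without replicate 3 or 4 of the hepatoblasts or replicate 2 or 4 of the mature hepatocytes, and 12.5% of its 75-base stretches occur in other genes.

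Both Crumbs complex genes of the 46 were called higher in culture than in hepatoblasts, a comparison in which 14.9% of all genes were called higher and 14.0% lower. Of 5 others of that complex, which are not among the 46, 0 were higher and 2 lower in this comparison, Crb2 and Lin7a. Crb3 encodes the short Crumbs protein of the apical membrane, and Patj encodes a scaffold with many PDZ domains that joins the complex to tight junctions. Patj had 9.61, 13.9, 13.99 and 15.9 CPM in hepatoblasts, 50.2, 46.1, 50.7 and 50.3 in Diff. hepatocytes, and 22.7, 21.5, 18.2 and 18.1 in mature hepatocytes. No groups overlapped, and culture was the highest, with log2 fold changes of 1.88 ± 0.14 against hepatoblasts (edgeR, adjusted p = 1.0e-07) and 1.29 ± 0.14 against adult.

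Crb3 had 5.87, 7.49, 11.04 and 11.3 CPM in hepatoblasts, 21.3, 19.97, 21.9 and 21.1 in Diff. hepatocytes, and 14.4, 12.8, 13.1 and 13.3 in mature hepatocytes, with the same order of groups and no overlap. It was called in culture against hepatoblasts, at 1.24 ± 0.17, and not against adult, at 0.65 ± 0.17. The first call was lost with library totals (log2 fold change of 0.94) and with the fold threshold inside the test (glmTreat). Windows of Crb3, Patj and Gjb2, all called higher in culture than in hepatoblasts, are shown with their matches to the E-box CACCTG. This sequence is bound by the SNAIL and ZEB repressors of epithelial genes. Of the 54 windows, those of Crb3 held the most matches, and 1 window each of Patj and Pard3 the next most. Pard3, called in no comparison, is not printed, nor are Ocln, Pard6b and Prkcz, with up to 2 matches a window. Tjp3, Gjb1 and Nectin2, also called higher in culture than in hepatoblasts, had up to 1 match a window and are not printed either. The choice of windows shown is no evidence of a link to culture. Matches on either strand are in capitals. CACCTG or its reverse complement occurred in 20.2% of all 32851 windows, in 20 of the 54 windows of these genes and in 15 of the 34 genes with a window. The motifs were chosen with the genes' values known, windows of 1 gene can overlap, and no test was made.
Crb3 (chr17:57061951-57062250, plus strand): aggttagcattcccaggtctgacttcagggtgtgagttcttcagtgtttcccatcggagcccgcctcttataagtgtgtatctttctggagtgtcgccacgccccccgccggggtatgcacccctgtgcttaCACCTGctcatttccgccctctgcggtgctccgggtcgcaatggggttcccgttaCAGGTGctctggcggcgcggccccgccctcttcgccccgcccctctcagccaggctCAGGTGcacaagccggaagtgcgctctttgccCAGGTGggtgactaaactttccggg
Patj (chr4:98395576-98395875, plus strand): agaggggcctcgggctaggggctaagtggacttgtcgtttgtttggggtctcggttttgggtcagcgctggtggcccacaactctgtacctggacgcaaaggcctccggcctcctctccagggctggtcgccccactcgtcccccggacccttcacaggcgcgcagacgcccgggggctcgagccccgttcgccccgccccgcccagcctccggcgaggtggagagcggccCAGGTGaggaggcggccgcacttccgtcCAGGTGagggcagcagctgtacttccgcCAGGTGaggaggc
Gjb2 (chr14:57104653-57104952, minus strand): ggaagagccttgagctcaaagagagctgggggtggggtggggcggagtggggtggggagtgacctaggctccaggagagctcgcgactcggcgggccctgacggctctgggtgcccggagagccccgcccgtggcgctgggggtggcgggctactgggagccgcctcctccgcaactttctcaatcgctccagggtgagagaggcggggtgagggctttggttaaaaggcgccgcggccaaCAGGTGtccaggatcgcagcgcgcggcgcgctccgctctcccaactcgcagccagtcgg

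The window of Crb3 held 4 matches, that of Patj 3 and that of Gjb2 1. Of the other motifs searched, the TATA box TATAAA occurred in 13.6% of all windows and in 16.7% of the 54 windows of these genes. The half-site GTTAAT of HNF1, a liver transcription factor, occurred in 7.10% and 9.26%, and the core CAAAGTC of an HNF4 site in 4.44% and 0%. By gene, where 1 gene can have several windows, they occurred in 8, 5 and 0 of the 34. No match says only that these letters are not in these windows.

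Few PAR complex genes passed the test. Pard3, Pard6 proteins, atypical protein kinase C and Cdc42 form the complex that sets up the apical border. Of 7 genes, 0 were called between Diff. hepatocytes and hepatoblasts, 2 between mature hepatocytes and hepatoblasts, Prkcz higher and Pard6g lower, and 0 between culture and adult, beside 28.9%, 44.8% and 35.8% of all genes. Whether these 7 differ from other genes was not tested. Library totals also called Cdc42, Prkci and Pard6b lower in adult than in hepatoblasts, at log2 fold changes of -1.47, -1.7 and -1.83, and Pard6b, Pard6g and Prkci higher in culture than in adult. DESeq2 called the same numbers of them, 0, 2 and 0, and 2, 7 and 6 had an unadjusted p under 0.05 in edgeR.

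Pard3, the scaffold of the complex, had 66.6, 102, 109 and 105 CPM in hepatoblasts, 75.7, 80.9, 81.4 and 77.1 in Diff. hepatocytes, and 118, 108, 111 and 129 in mature hepatocytes. Cdc42, the small GTPase that activates the complex, had 212, 229, 221 and 219.5 CPM in hepatoblasts, 208, 179.98, 176 and 162 in Diff. hepatocytes, and 128, 147, 143 and 157 in mature hepatocytes. Its groups did not overlap, with hepatoblasts highest and adult lowest, yet the log2 fold changes of -0.28 ± 0.09 and -0.61 ± 0.09 against hepatoblasts were under the threshold. Atypical protein kinase C has an iota form, Prkci, and a zeta form, Prkcz.

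Prkci had 31.9, 46.8, 47.4 and 49.3 CPM in hepatoblasts, 45.7, 37.5, 36.5 and 35.5 in Diff. hepatocytes, and 23.2, 22.5, 25.9 and 25.1 in mature hepatocytes, and Prkcz 4.22, 6.299, 7.25 and 7.26 in hepatoblasts, 11.5, 11.3, 12.1 and 11.98 in Diff. hepatocytes, and 17.6, 29.4, 22.3 and 19.9 in mature hepatocytes. The zeta form was higher in adult than in hepatoblasts, with a log2 fold change of 1.83 ± 0.18 (edgeR, adjusted p = 9.4e-07), while the iota form had -0.86 ± 0.13, under the threshold. For Prkcz, 11.5% of the 75-base stretches occur in another gene. Pard6b had 15.1, 19.1, 21.9 and 19.3 CPM in hepatoblasts, 19.2, 18.6, 16.1 and 17.5 in Diff. hepatocytes, and 11.8, 6.48, 10.4 and 9.62 in mature hepatocytes, and its log2 fold change was -0.98 ± 0.16 in adult against hepatoblasts, just under the threshold. It was called there with library totals, with no filter on low counts (-1.02), with at least 10 counts in every library (-1.1) and without replicate 1 of the hepatoblasts or replicate 1 or 3 of the mature hepatocytes.

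Pard6g was low throughout, at 2.19, 1.91, 2.66 and 1.92 CPM in hepatoblasts, 2.29, 0.818, 1.199 and 0.838 in Diff. hepatocytes, and 0.343, 0.449, 0.817 and 0.931 in mature hepatocytes, and was lower in adult than in hepatoblasts, with a log2 fold change of -1.75 ± 0.39. Pard6a was below 4 CPM in every library and was not called. The cultured libraries of Pard6g overlapped with both other groups, and its highest cultured value was in replicate 1, the library with the most mesenchymal markers. Without that library Pard6g was called lower in culture than in hepatoblasts, at a log2 fold change of -1.18.

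Of the 4 Scribble complex genes, which define the lateral membrane, 1 was called in adult against hepatoblasts, where 44.8% of all genes were called. In culture 0 were called against hepatoblasts and 0 against adult, beside 28.9% and 35.8% of all genes. Llgl1 had 26.7, 24.2, 24.999 and 23.6 CPM in hepatoblasts, 14.9, 13.9, 13.02 and 13.8 in Diff. hepatocytes, and 11.5, 10.7, 11.8 and 11.2 in mature hepatocytes and was lower in adult than in hepatoblasts, with a log2 fold change of -1.14 ± 0.08. Its paralogue Llgl2 had 39.9, 54.01, 61.3 and 64.1 CPM in hepatoblasts, 67.3, 68.3, 69.4 and 61.8 in Diff. hepatocytes, and 55.2, 39.9, 53.9 and 48.3 in mature hepatocytes and was called in no comparison. Scrib and Dlg1 had log2 fold changes between -0.4 and 0.45 over the 3 comparisons, all below the fold threshold.

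Of 6 adherens junction genes, only Cdh1 was called, lower in adult than in both other groups, where 44.8% and 35.8% of all genes were called. With library totals, Ctnnb1 (-1.61) and Ctnnd1 were also called lower in adult than in hepatoblasts and Ctnna1 higher in culture than in adult. Cdh1, which encodes E-cadherin, had 175, 232, 259.7 and 287 CPM in hepatoblasts, 317, 304, 317 and 301 in Diff. hepatocytes, and 97.3, 81.2, 163 and 83.8 in mature hepatocytes. The groups did not overlap. Mature hepatocytes were lowest, with a log2 fold change of -1.16 ± 0.21 against hepatoblasts (edgeR, adjusted p = 2.0e-04), and culture was 2.91-fold above adult. Between culture and hepatoblasts the log2 fold change was 0.38 ± 0.2, and this difference missed the threshold.

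Cdh2 encodes N-cadherin, which hepatocytes carry beside E-cadherin. It had 74.9, 123, 126 and 117 CPM in hepatoblasts, 92.95, 79.6, 78.8 and 78.9 in Diff. hepatocytes, and 112, 96.2, 129 and 141 in mature hepatocytes and was called in no comparison. Ctnnb1, which encodes beta-catenin, the partner of both cadherins and of Wnt signalling, had 301, 423, 434 and 435 CPM in hepatoblasts, 313, 262, 293 and 292 in Diff. hepatocytes, and 226, 208, 245 and 256 in mature hepatocytes, with log2 fold changes of -0.46 ± 0.12 in culture and -0.77 ± 0.12 in adult against hepatoblasts. Jup encodes plakoglobin, its close relative in junctions, and had 46.5, 58.3, 66.5 and 61.7 CPM in hepatoblasts, 73.1, 57.8, 68.1 and 56.6 in Diff. hepatocytes, and 61.9, 57.6, 68.9 and 82.1 in mature hepatocytes with overlap in all 3 comparisons.

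Ctnna1, which encodes alpha-catenin, the link from the cadherin complex to actin, had 128 to 148 CPM in hepatoblasts, 251 to 293 in culture and 163 to 181 in adult. Culture was above both other groups without overlap, at a log2 fold change of 0.93 ± 0.08 against hepatoblasts, just under the threshold. Ctnnd1 was not called, and 61.2% of its exon bases overlap Gm28635 on the same strand.

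The nectins, which start cell contacts together with afadin, were higher in adult than in hepatoblasts, a comparison in which 20.1% of all genes were called higher. Nectin2 rose in both differentiated groups, with 28.3, 39.98, 42.9 and 37.9 CPM in hepatoblasts, 92.05, 89.5, 101 and 88.5 in Diff. hepatocytes, and 95.4, 114, 115 and 80.6 in mature hepatocytes. Every library of either group was above every hepatoblast library, at log2 fold changes of 1.32 ± 0.14 in culture and 1.44 ± 0.14 in adult. Nectin3 had 1.16 ± 0.15 in adult against hepatoblasts. Nectin1 had 1.0 ± 0.2, at the edge of the fold threshold, and its call was lost in 5 of the 12 fits that left out 1 library (replicate 1 of the hepatoblasts, replicate 2 of the Diff. hepatocytes and replicates 1, 3 and 4 of the mature hepatocytes). The Nectin1 call was also lost with DESeq2, glmTreat, library totals, both other filters on counts and the fit of only the 8 libraries compared. Afdn, which encodes afadin, was not called in any comparison.

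**Figure D3:**
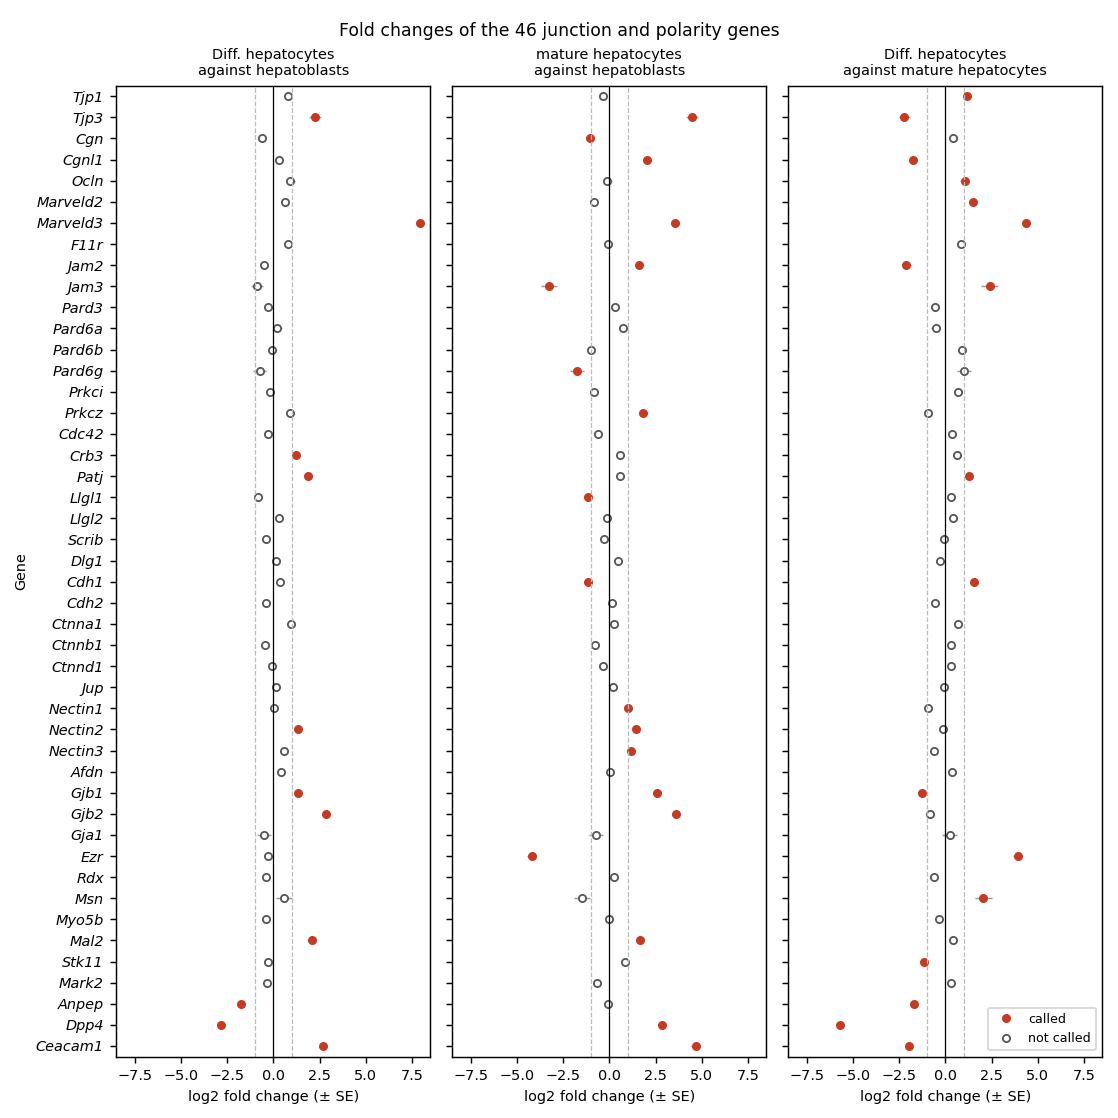
Log2 fold changes (points, with SE bars) of the 46 genes in 3 comparisons. Filled points were called (adjusted p below 0.01 and a log2 fold change beyond the dashed lines at 1 and -1). Marveld3 in culture and Dpp4 between culture and adult lie farthest from 0.

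The ERM proteins ezrin, radixin and moesin held the largest fall of the 46 genes in adult cells. Ezr had 119, 110.2, 109.9 and 95.98 CPM in hepatoblasts, 135, 60.3, 84.6 and 71.9 in Diff. hepatocytes, and 7.13, 6.097, 5.603 and 4.66 in mature hepatocytes. Hepatoblasts and culture overlapped, and both were above every adult library, with log2 fold changes of -4.21 ± 0.24 in adult against hepatoblasts (edgeR, adjusted p = 3.4e-09) and 3.91 ± 0.24 in culture against adult. Rdx, the ERM protein of the hepatocyte canaliculus, had 259, 292, 303 and 308 CPM in hepatoblasts, 213, 240.3, 207 and 224 in Diff. hepatocytes, and 341, 303, 309 and 413 in mature hepatocytes. It was called in no comparison, and its cultured libraries were below all others.

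Msn had 111, 36.5, 30.3 and 26.5 CPM in hepatoblasts, 137, 52.6, 62.5 and 49.6 in Diff. hepatocytes, and 20.2, 13.9, 22.9 and 16.1 in mature hepatocytes. In both hepatoblasts and culture, replicate 1 was far above the other 3 libraries, and these are the libraries with the most macrophage markers of their group. Msn was called higher in culture than in adult, by 2.05 ± 0.47 (edgeR, adjusted p = 0.0017). Against hepatoblasts it was not called in culture, and it was called there once replicate 1 of the hepatoblasts was left out. In adult against hepatoblasts Msn had a log2 fold change of -1.48 ± 0.46 without overlap. It narrowly missed the p threshold (edgeR, adjusted p = 0.0105). Msn was called lower in adult than in hepatoblasts with DESeq2, library totals, both other filters on counts and the replicate block. Moesin is known from endothelial, blood and mesenchymal cells and ezrin from cholangiocytes, and 8 bile duct markers summed to 27.0 to 36.0 CPM in hepatoblasts, 93.8 to 233 in culture and 37.7 to 66.6 in adult, with none at 0 in a whole group. The part of these cell types in Ezr and Msn was not tested.

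Of the apical trafficking genes, Mal2, a raft protein of the route by which hepatocytes carry proteins to the canaliculus, had 15.03, 17.8, 18.3 and 24.2 CPM in hepatoblasts, 73.97, 80.7, 81.02 and 82.2 in Diff. hepatocytes, and 68.7, 58.4, 72.5 and 42.1 in mature hepatocytes. Both differentiated groups were above all hepatoblast libraries, with log2 fold changes of 2.08 ± 0.17 in culture (edgeR, adjusted p = 2.9e-07) and 1.68 ± 0.17 in adult. Myo5b, which encodes a motor of recycling endosomes, was not called and had 36.1 to 60.7, 36.6 to 40.2 and 44.5 to 52.5 CPM in the 3 groups.

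The polarity kinases Stk11 (LKB1) and Mark2 (PAR-1b) act on microtubules and canalicular network formation. Stk11 had 114, 85.98, 89.4 and 87.5 CPM in hepatoblasts, 72.3, 72.02, 80.1 and 78.7 in Diff. hepatocytes, and 172, 158, 164 and 172 in mature hepatocytes. Mature hepatocytes were above all other libraries, and culture was lower than adult by 2.19-fold (edgeR, adjusted p = 3.1e-07). Mark2 had 63.01, 51.9, 53.8 and 54.1 CPM in hepatoblasts, 46.95, 40.7, 41.7 and 43.9 in Diff. hepatocytes, and 37.03, 32.7, 35.7 and 34.2 in mature hepatocytes, a falling order without overlap and no call, since its log2 fold changes against hepatoblasts were -0.36 ± 0.08 and -0.67 ± 0.08.

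Expression levels of different genes can be compared per length of exon. In hepatoblasts Gjb1 was the highest of the 46, at 105 ± 25.2 CPM per kb (SD, n = 4), followed by Ctnnb1 at 76.7 ± 12.5 and Cdc42 at 74.2 ± 2.29, which did not differ beyond their spread. In Diff. hepatocytes the order was Gjb1 at 259.5 ± 22.02, Gjb2 at 118 ± 7.53 and Cdh1 at 67.7 ± 1.87, the last within the spread of F11r at 64.2 ± 2.35. In mature hepatocytes it was Gjb1 at 633 ± 69.5, Gjb2 at 206 ± 39.7 and Rdx at 73.6 ± 10.8. By their means the lowest members were Marveld3 in hepatoblasts, at 0.0317 ± 0.00589, and Jam3 in adult, at 0.0821 ± 0.0348. In culture Jam2, at 0.248 ± 0.0275, and Gja1, at 0.2996 ± 0.203, were lowest and did not differ beyond their spread.

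Many of these proteins have a close relative with a similar role, so the balance within 12 pairs was taken as the log2 ratio of counts per kb, which does not depend on how libraries are scaled. Groups were compared pair by pair with an exact permutation test, two-sided, in which 8 libraries have 70 assignments and p cannot go below 0.0286. Of 36 tests, 29 reached that smallest p, which is 0.0355 after Benjamini-Hochberg adjustment over the 36. In those tests the groups did not overlap. The share among pairs of other genes was not computed, so 29 of 36 is no result about these families. Of all single genes, 28.9% were called in culture against hepatoblasts, 44.8% in adult against hepatoblasts and 35.8% in culture against adult.

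Radixin against ezrin moved furthest in ERM proteins. The log2 ratio Rdx/Ezr was 0.62, 0.91, 0.97 and 1.19 in hepatoblasts, 0.16, 1.5, 0.79 and 1.15 in culture and 5.08, 5.13, 5.28 and 5.96 in adult. Adult cells thus held 21.7 times the ratio of hepatoblasts (exact permutation, adjusted p = 0.0355), while culture and hepatoblasts overlapped, with a difference of -0.02.

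ZO-1 against ZO-3 went from an excess of Tjp1 to near balance. The log2 ratio Tjp1/Tjp3 was 4.69 ± 0.31 (SD, n = 4) in hepatoblasts, 3.29 ± 0.22 in culture and 0.0 ± 0.64 in adult. Cingulin against paracingulin changed side. The log2 ratio Cgn/Cgnl1 was 1.58 ± 0.03 in hepatoblasts, 0.67 ± 0.22 in culture and -1.5 ± 0.53 in adult. Prkci/Prkcz took the same order, at 3.0 ± 0.1, 1.9 ± 0.19 and 0.33 ± 0.36. In these 3 pairs culture lay between hepatoblasts and adult without overlap.

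E-cadherin against N-cadherin did not follow that order. The log2 ratio Cdh1/Cdh2 was 2.04, 1.73, 1.86 and 2.11 in hepatoblasts, 2.59, 2.75, 2.83 and 2.75 in culture and 0.61, 0.57, 1.15 and 0.07 in adult. Culture was above hepatoblasts by 0.79 and adult below them by 1.33 (log2), so the difference between culture and adult was 4.37-fold. Gjb1/Gjb2 was lowest in culture, at 1.14 ± 0.07 against 2.64 ± 0.09 in hepatoblasts and 1.63 ± 0.33 in adult.

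The ratio Ctnnb1/Jup fell from 3.08 ± 0.08 in hepatoblasts to 2.5 ± 0.13 in culture and 2.11 ± 0.11 in adult. Llgl1/Llgl2 was lower in both differentiated groups than in hepatoblasts, which had -1.12 ± 0.38, and culture and adult overlapped at -2.27 ± 0.12 and -2.12 ± 0.16. For the remaining 4 pairs, Gjb1/Gja1, Rdx/Msn, F11r/Jam3 and Pard6b/Pard6g, the ratio was higher in adult than in hepatoblasts, by 3.29, 1.47, 3.2 and 0.81 on the log2 scale.

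**Figure D4:**
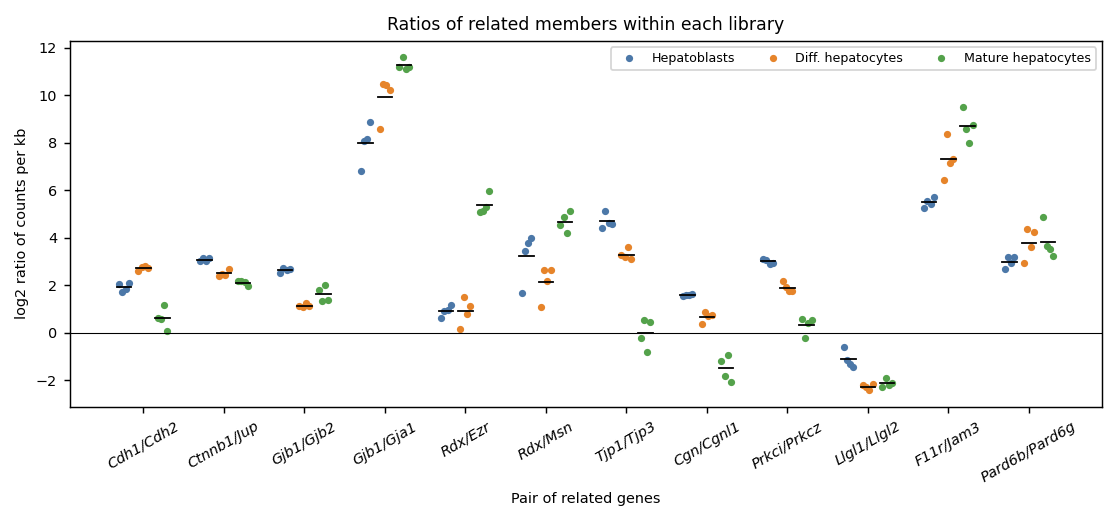
Log2 ratio of counts per kb for 12 pairs of related genes, 1 point per library, black bars for means of 4. A value of 0 means equal levels per kb. Rdx/Ezr is highest in mature hepatocytes, and Cdh1/Cdh2 is highest in Diff. hepatocytes.

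Set against the mean of both freshly isolated groups, Diff. hepatocytes differed in 10 of the 46 genes, 7 higher and 3 lower, against 24.5% of all genes, 15.6% higher and 8.92% lower. Marveld3, Ezr, Patj, Msn, Mal2, Marveld2 and Gjb2 were higher and Dpp4, Anpep and Jam2 lower. Among them, Marveld3, Marveld2, Patj and Mal2 were above every library of both other groups, and Dpp4, Anpep and Jam2 below every library of both. By contrast, Gjb2 in culture was below every adult library, and Ezr and Msn overlapped with hepatoblasts. The Gjb2 and Msn calls were at the edge and were lost in 6 and 10 of the 12 fits that left out 1 library.

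Of 79 other junction and polarity genes, claudins and Rabs again left out, 69 were tested. In Diff. hepatocytes against hepatoblasts 13 were higher and 6 lower, in mature hepatocytes against hepatoblasts 10 higher and 23 lower, and in culture against adult 25 higher and 11 lower. The shares called were 27.5%, 47.8% and 52.2%, beside 28.9%, 44.8% and 35.8% of all genes. Their median log2 fold changes were 0.21, -0.14 and 0.38 in that order, against -0.01, -0.15 and 0.09 over all genes.

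The genes named next were chosen by the size of their fold in each comparison, among those called at a mean of at least 10 CPM. Ggt1, an enzyme of glutathione breakdown on canalicular and ductal membranes, had 14.8 to 26.2 CPM in hepatoblasts, 265 to 301 in culture and 0.124 to 0.47998 in adult, where the adult libraries held only 7, 5, 5 and 2 counts. From summed counts, culture had 956 times the adult level (95% exact counting interval 612 to 1589). Myo5c, an unconventional myosin of epithelia, had 2.52 to 5.44, 21.7 to 28.5 and 0 to 0.124 CPM. Nt5e, an ecto-nucleotidase, had 44.8 to 74.4, 82.3 to 116 and 1.604 to 8.64 CPM. These 3 were lowest in adult and highest in culture, though Nt5e was not called between culture and hepatoblasts.

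Mme, a membrane peptidase, was close to 0 outside the adult group, at 0.0967 to 0.291 CPM in hepatoblasts and 0.172 to 0.267 in culture against 35.9 to 76.7 in adult. Prkaa2, a catalytic subunit of AMP-activated kinase and a target of Stk11, rose in order, with 3.84 to 6.43, 25.2 to 30.1 and 108 to 140.2 CPM. Stx3, an apical syntaxin, and Pvr, a nectin-like receptor, were higher in culture than in hepatoblasts, at log2 fold changes of 1.71 ± 0.09 and 1.63 ± 0.15. Amot, a scaffold of tight junctions and Hippo signalling, was lower in adult than in hepatoblasts by 5.69-fold, and Lin7a, a partner of the Crumbs complex, was lower in culture than in adult by 13.7-fold.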

How the data were processed

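The authors read poly(A) RNA of 12 libraries, made with strand information, as 75-base single reads, checked them with FastQC 0.11.2 and mapped and counted them with STAR 2.5.2b on GRCm38 and the genes of an Ensembl release. What they deposited are unnormalized whole-number counts of reads for each gene. STAR's strand setting and any removal of duplicates are not given in the sources used here. Gene positions and exon lengths came from GENCODE M21, in which 53620 of the 53715 identifiers were found.

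Genes over 10 counts in at least 1 library were scaled by TMM and tested with edgeR 4.0.16 (quasi-likelihood test) in R 4.3.3, with group as the only term over 12 libraries. Calls needed p below 0.01 after Benjamini-Hochberg adjustment and a log2 fold change beyond 1 either way, as the authors chose for DESeq2. On simulated counts of 16319 genes for Diff. hepatocytes against hepatoblasts, 200 of 200 changed genes and 0 unchanged genes were called. The changed genes were all well expressed with folds set beyond the threshold, and the other genes had no change at all. This easier case checks the code and does not give the error rate of the calls on the real libraries. Ratios within pairs used 0.5 added to each count and were tested by exact permutation. Library totals of 19581551 to 25216977 counts set the precision, and counting intervals are exact (95%).

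The members and lists were chosen with earlier results of these data known. Values per library are given for genes of the study's siRNA screen and stainings, genes of the 12 pairs and the 10 called genes of largest fold per comparison, and other junction genes are named for the 5 largest at a mean of at least 10 CPM. Lists of 10 erythroid, 9 macrophage, 9 endothelial, 9 mesenchymal, 8 bile duct, 6 mesothelial, 8 cell cycle, 5 hepatoblast and 7 hepatocyte markers were summed. Alternatives were DESeq2 1.42.0, glmTreat, other scalings and filters, 8-library fits, a replicate block and fits without each library. Labels call the libraries biological replicates without naming separate litters or animals for each, so p-values measure the spread between these libraries. Same-numbered libraries did not deviate together in every pair of groups (correlations of -0.08 to 0.32), so numbers were not taken as pairs. Between hepatoblasts and Diff. hepatocytes alone, same numbers had 0.32, -0.06, 0.25 and 0.18, and different numbers -0.35 to 0.24. Imaging and siRNA data were not analysed here.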

Additional observations from a re-analysis of the deposited data

Results flagged for a closer look

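In each group of 4 libraries, the highest or lowest CPM of a gene was compared with the range of its group by Dixon's criterion, for the 35 genes with values given per library. Of 105 such groups, 10 held a library far from the other 3, where chance gives about 1 in 20, or 5.25.

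Hepatoblasts replicate 1 was far below the other 3 libraries in Tjp1 at 63.6 CPM, Ctnnb1 at 301 CPM and Prkci at 31.9 CPM, and far above them in Stk11 at 114 CPM and Msn at 111 CPM. The same library held the most erythroid, macrophage and endothelial markers of its group. Diff. hepatocytes replicate 1 was far above its group in Cdh2 at 92.95 CPM, Gja1 at 6.18 CPM and Msn at 137 CPM, and held the most mesenchymal, macrophage and bile duct markers of its group. The part of other cell types in these values was not tested. Diff. hepatocytes replicate 2 was lowest in Patj at 46.1 CPM, and Diff. hepatocytes replicate 4 was lowest in Marveld3 at 23.1 CPM, both still above every library of the other groups.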

How the results depend on the processing

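Counts of called genes among the 46 are given in the order culture against hepatoblasts, adult against hepatoblasts, culture against adult, and culture against both freshly isolated groups, where 11, 19, 17 and 10 were called. No called gene changed direction under any alternative run. With an adjusted p under 0.01 and no fold threshold the counts were 24, 31, 33 and 22. With the threshold inside the test (glmTreat) they were 8, 13, 11 and 5, and with DESeq2 11, 19, 17 and 11. Library totals gave 12, 25, 21 and 14. Leaving out 1 library at a time gave 11 to 14, 17 to 20, 17 to 19 and 9 to 13. With the replicate number as a block the counts were 11, 20, 17 and 11. The numbers share no stated litter or day, and not every library correlated best with its own number. The block changed no call beyond adding Msn in the second and Tjp1 in the fourth comparison. Of the other junction genes 19, 33, 36 and 26 were called, and 8, 16, 17 and 12 with at least 10 counts in every library, which tests fewer genes. With glmTreat 11 of them were called in the first comparison, and without a fold threshold 36 in the first and 44 in the fourth. A pseudocount of 2 or the loss of 1 library turned the sign of no pair ratio that had reached the smallest p. Without 1 library the exact test has 35 assignments. Depth limited Marveld3 in hepatoblasts, with 3 or 4 counts a library, and Jam3 in mature hepatocytes, with 2 to 7.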

Other observations

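Marveld3, which of the 46 genes had the largest rise in culture against hepatoblasts, lies beside Tat, which encodes tyrosine aminotransferase, an enzyme of hepatocytes known to respond to glucocorticoids. This neighbourhood was looked at after the values of Marveld3 were seen. Within 100000 bases of Marveld3, 3 other genes were tested. Tat starts 28234 bases from Marveld3 on the opposite strand, at chr8:109990437-109999803. Hepatoblasts had 2.03 to 2.62 CPM of Tat, Diff. hepatocytes 520.2 to 849 and mature hepatocytes 2225 to 2765. In Diff. hepatocytes against hepatoblasts its log2 fold change was 8.28 ± 0.20 (SE). For Marveld3, at 3 or 4 counts a hepatoblast library, the summed counts gave 259 times the level (95% exact counting interval 151 to 486). Between culture and adult the neighbours went opposite ways, with Tat lower in culture by 1.73 on the log2 scale and Marveld3 higher by 4.38. Phlpp2 lies 3243 bases from the other end of Marveld3 and was lower in both differentiated groups, with log2 fold changes of -1.13 ± 0.16 in culture and -1.40 ± 0.16 in adult against hepatoblasts. Ap1g1, at 83710 bases, had 0.83 ± 0.09 and 0.38 ± 0.09. Any link between these genes was not tested.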
